A study of Caenorhabditis elegans with 15 samples.

Results

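Cytochrome c and the small nuclear-encoded subunits of cytochrome c oxidase were followed in dissected intestines of the nematode Caenorhabditis elegans. The 8 genes were chosen by name and function: cyc-2.1, which encodes cytochrome c, and the oxidase subunit genes cox-4, cox-5A, cox-5B, cox-6A, cox-6B, cox-6C and cox-7C. All 8 were found among the 46904 genes of the deposited transcript map, and all 8 passed the filter on low counts that left 10585 genes for testing. Other components of cytochrome c oxidase are described beside them for comparison.

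Cytochrome c is a small heme protein of the space between the mitochondrial membranes. It takes electrons from complex III of the respiratory chain and hands them to cytochrome c oxidase, complex IV, which passes them to oxygen and pumps protons across the inner membrane. The catalytic core of the oxidase, with its hemes and copper centres, is encoded by the mitochondrial DNA, and the smaller subunits around the core are encoded in the nucleus, made in the cytosol and imported. Dedicated assembly factors deliver copper and heme and put the subunits together. In C. elegans, RNA interference against cox-5B, long known as cco-1, is a standard way to set off the mitochondrial stress response and to lengthen life.

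The libraries came from worms 5 days old that had been grown on plates seeded with the bacterium OP50, with 20 intestines dissected for each library. There were 5 libraries each of wild type worms, of the mutant gas-1(fc21), called gas-1, and of that mutant with overexpression of cest-2.2 in strain BAN329, called OE. The gas-1 gene encodes a subunit of complex I, the first complex of the chain, and cest-2.2 belongs to the carboxylesterase family. Both the gas-1 and the OE groups carry gas-1(fc21), so OE and wild type differ in the mutation as well as in cest-2.2, and cest-2.2 overexpression without the mutation was not analysed here. The promoter behind the overexpression is not given in the sources used here. Nothing in the labels says whether the 5 libraries of a group came from separate cultures, so p-values measure the spread between these libraries, which may be partly technical.

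Total estimated counts per library were 12182697 to 40045140 (wild type), 12607565 to 17688689 (gas-1) and 12785262 to 45896053 (OE). The 8 genes had between 161 (cox-7C) and 5275 estimated counts in any library. The wild type libraries of cox-7C varied by a coefficient of variation of 6.03% in CPM, at 161 to 644 counts, so counting error is not small beside the spread of that gene. CPM are counts scaled to the library size as adjusted by the trimmed mean of M values. The gas-1 transcript itself averaged 67.8 ± 14.4 CPM in wild type (SD, n = 5), 124 ± 20.8 CPM among gas-1 libraries and 121 ± 28.1 CPM among OE libraries. The labels do not say what fc21 does to the transcript, so this level does not check them. The cest-2.2 transcript stood at 42.2 ± 17.4, 56.1 ± 24.2 and 121 ± 42.7 CPM. OE exceeded wild type in it (log2 fold change 1.52 ± 0.34 SE, edgeR adjusted p = 0.0111), and its difference between OE and gas-1 did not pass the test (1.11 ± 0.33, adjusted p = 0.109).

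Tissue markers moved with the groups. The summed level of 14 intestine markers, all of them tested, lay between 3190 and 7630 CPM across wild type libraries, between 6620 and 11200 across gas-1 libraries and between 4790 and 10200 across OE libraries. In gas-1 against wild type all 14 had a log2 fold change above 0. Of these, 9 were called higher at an edgeR adjusted p under 0.05, against 12.8% of all tested genes. The 10 germline markers had sums of 1590 to 1890, 839 to 1700 and 1320 to 2120 CPM for wild type, gas-1 and OE. In gas-1 against wild type 0 of the 10 were above 0, and 5 were called lower. The 8 oocyte markers had sums of 2830 to 3600, 1690 to 2640 and 2120 to 3830 CPM in the same order, with 0 above 0 and 4 called lower. Of all 10585 tested genes 913 were called lower. The 12 body wall muscle markers summed to 182 to 2150, 185 to 312 and 108 to 403 CPM, again in that order. The 6 pharynx markers had median sums of 61.5, 27.4 and 97.9 CPM and a highest library of 285 CPM, in OE, and the 7 neuronal markers summed to 40 to 89.6, 41.1 to 62.4 and 34.9 to 58 CPM, with the neuronal gene ric-4 averaging under 1 CPM. The 6 hypodermis markers summed to 18.9 to 1050, 48.5 to 293 and 22.3 to 202 CPM, although rol-6 and bli-1 were at 0 in every group and col-10 and dpy-7 averaged under 1 CPM. The 4 sperm markers summed to at most 4.72 CPM in any library. In bulk samples such as these, fewer cells of a type and less RNA per cell cannot be told apart.

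All 8 genes were higher in gas-1 intestines than in wild type intestines, by 1.48-fold to 2.21-fold. Cytochrome c rose most, and the oxidase subunits rose by 1.48-fold to 1.88-fold. For scale, 21.4% of all tested genes were called in this comparison at a Benjamini-Hochberg adjusted p under 0.05, and 12.8% were called higher. The median log2 fold change was 0.76 over the 8 genes and -0.11 over all tested genes. Levels of each gene are given below in CPM scaled by the trimmed mean of M values (TMM), in the order of replicates 1 to 5, and each test is edgeR's quasi-likelihood F test.

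The cytochrome c gene cyc-2.1 (WBGene00017121) lies on chromosome IV at 4747895 to 4749012, minus strand, in WBcel235. Wild type libraries held 87.4, 69.5, 73.4, 106 and 73.7 CPM of cyc-2.1, gas-1 libraries 182, 144, 189, 195 and 195 CPM, and OE libraries 174, 103, 163, 144 and 131 CPM. Every gas-1 library stood above every wild type library, while OE lay between the other groups and its lowest library, replicate 2, fell just under the highest wild type library. The gas-1 mean of 181 ± 21.5 CPM exceeded the wild type mean of 82.1 ± 15.2 (SD, n = 5 each) by a log2 fold change of 1.14 ± 0.17 SE (adjusted p = 0.000334). Across all tested genes this change ranked 131st by p.

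Among the oxidase subunits, cox-4 (WBGene00012354, chromosome I, 13658171 to 13659128, minus strand) encodes the worm's counterpart of subunit 4, a membrane-spanning subunit that touches the catalytic core. Its levels were 91.6, 74.7, 83.1, 101 and 82.7 CPM in wild type, 133, 98.8, 131, 138 and 141 CPM in gas-1, and 189.6, 112, 167, 129 and 115 CPM in OE. Replicate 2 of gas-1 fell under the highest wild type library, whereas all OE libraries lay above all wild type libraries. The rise in gas-1 was the smallest of the 8, with a log2 fold change of 0.57 ± 0.17 (adjusted p = 0.0259).

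Subunits 5A and 5B are soluble proteins attached to the matrix side of the enzyme, and 5B binds zinc. The gene cox-5A (WBGene00012553, chromosome III, 12905491 to 12906619, plus strand) stood at 83.2, 63.7, 76.2, 96.4 and 69.9 CPM in wild type, 127, 101, 129, 131 and 137 CPM in gas-1, and 161, 93.2, 129.8, 104 and 96.8 CPM in OE. The gas-1 and wild type libraries of cox-5A did not overlap, and its log2 fold change was 0.68 ± 0.17 (adjusted p = 0.0119). The gene cox-5B (WBGene00000371, chromosome I, 9788725 to 9790050, plus strand) stood at 43.9, 31.6, 37.1, 44.6 and 39.9 CPM in wild type, 73.1, 65.4, 61.3, 77.0 and 73.5 CPM in gas-1, and 66.2, 47.4, 52.9, 52.3 and 50.9 CPM in OE. Both mutant groups of cox-5B lay wholly above wild type, and its within-group spread was the smallest of the 8 (SD of log2 CPM 0.175). Its rise in gas-1 was 0.83 ± 0.14 on the log2 scale (adjusted p = 0.00085).

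Subunits 6A and 6B face the space between the membranes, where cytochrome c docks. The gene cox-6A (WBGene00006519, chromosome III, 5081724 to 5082995, plus strand) stood at 26.1, 22.8, 24.3, 31.7 and 24.5 CPM in wild type, 45.3, 28.3, 39.0, 46.7 and 48.5 CPM in gas-1, and 54.4, 25.9, 43.3, 32.6 and 31 CPM in OE. Replicate 2 was the lowest library of cox-6A in both mutant groups and fell within the wild type range in each. Its log2 fold change between gas-1 and wild type was 0.68 ± 0.21 (adjusted p = 0.0279). The gene cox-6B (WBGene00022170, chromosome III, 2699663 to 2786859, plus strand) shares 8 exon bases with nduc-2 on the same strand, and stood at 39.7, 29.8, 42.1, 50.5 and 35.9 CPM in wild type, 74.9, 50.5, 59.6, 65.9 and 68.2 CPM in gas-1, and 75.0, 48.2, 63.3, 58.4 and 59.5 CPM in OE. RefSeq gives cox-6B a shorter span, 2786202 to 2786754, so its start differs between annotations. The lowest gas-1 library and the highest wild type library of cox-6B touched at 50.5 CPM, and its log2 fold change was 0.69 ± 0.16 (adjusted p = 0.00956).

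The least abundant transcripts by CPM were those of subunits 6C and 7C, short membrane-spanning proteins. The gene cox-6C (WBGene00017926, chromosome IV, 126731 to 127640, plus strand) stood at 17.4, 7.95, 12.5, 17.6 and 10.8 CPM in wild type, 34.4, 20.0, 23.2, 26.8 and 20.4 CPM in gas-1, and 24.4, 13.2, 21.5, 17 and 17.6 CPM in OE. No gas-1 library of cox-6C overlapped wild type, and its log2 fold change was 0.91 ± 0.24 (adjusted p = 0.0164), with the widest within-group spread of the 8 (SD of log2 CPM 0.387). The gene cox-7C (WBGene00009161, chromosome I, 9773172 to 9774012, plus strand) stood at 15.8, 13.4, 15.1, 15 and 15.3 CPM in wild type, 29.8, 19.1, 27.5, 30.7 and 24.8 CPM in gas-1, and 28.2, 17.5, 27.2, 15.4 and 21.1 CPM in OE. The wild type libraries of cox-7C lay close together, all gas-1 libraries lay above them, and its log2 fold change was 0.82 ± 0.19 (adjusted p = 0.00813).

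**Figure D1:**
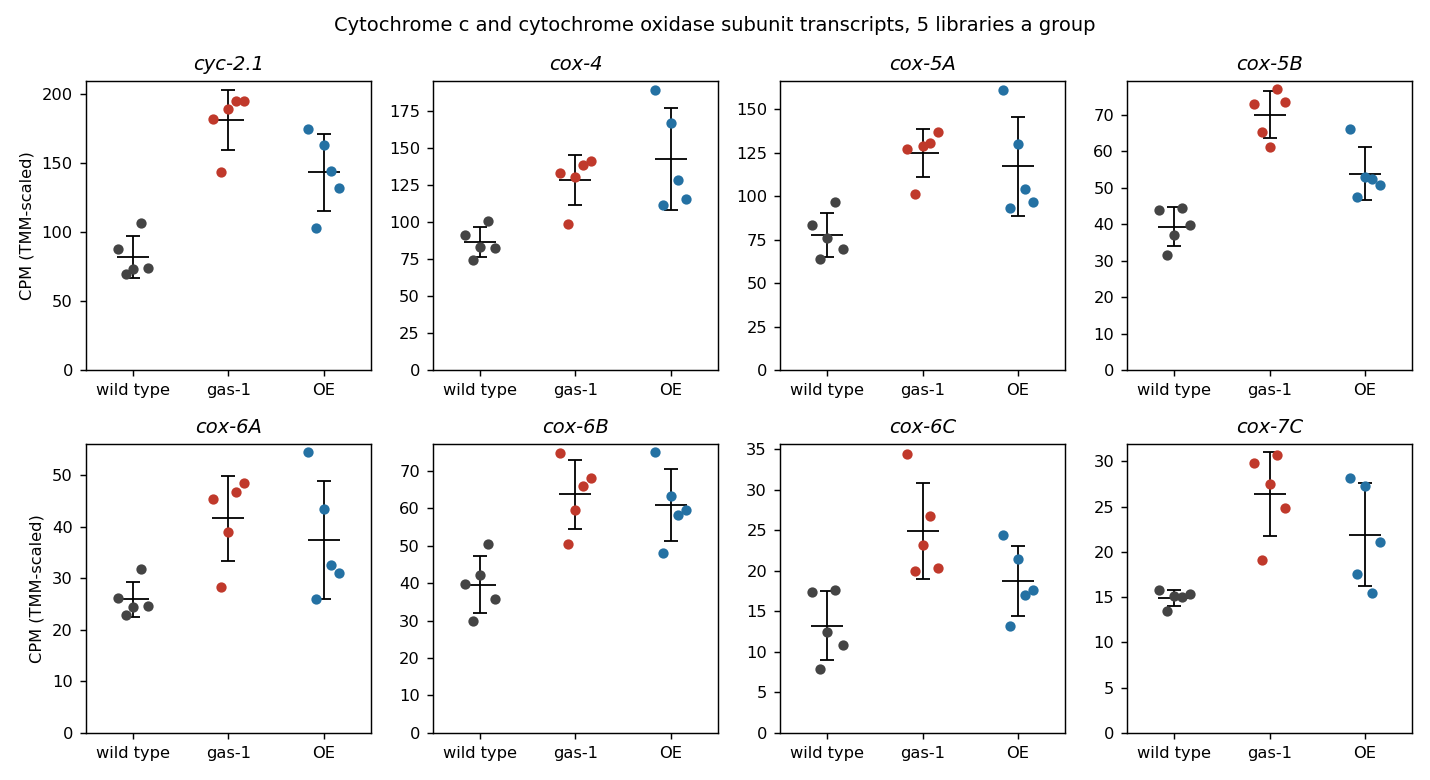
TMM-scaled CPM of the 8 genes, with a point for each library of wild type, gas-1 and OE and a line at the mean and a bar for the SD of each group. Wild type means run from 13.3 CPM (cox-6C) to 86.6 CPM (cox-4), and every gas-1 mean stands above its wild type mean.

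Over the 8 genes, 5 had gas-1 libraries that lay entirely above the wild type libraries (cyc-2.1, cox-5A, cox-5B, cox-6C and cox-7C), against 9.62% of all tested genes that did so. In cox-4, cox-6A and cox-6B the overlap came from gas-1 replicate 2 against wild type replicate 4. These calls changed with the scaling of the libraries and when an intestine or germline marker score was added to the fit. Adding the intestine marker score of each library to the fit left 0 of the 8 called, and so did adding the germline marker score, while cyc-2.1 then read 0.76 (adjusted p = 0.116) and 0.73 (adjusted p = 0.0957) on the log2 scale. Over all tested genes the calls fell as well, from 2268 to 184 (1.74%) and 175 (1.65%), so 0 of 8 is near the share of all genes in those fits. The intestine score ran from 6.22 to 7.43 in wild type and from 7.69 to 8.44 in gas-1, without overlap. The germline score ran from 7.0 to 7.29 and from 6.2 to 7.03 in the same order. The scores thus went closely with the group, so these fits could hardly tell score and group apart. The part of tissue makeup in the result was not tested beyond them. Scaling by total estimated counts in place of TMM left 1 called, cyc-2.1, with 16.5% of all genes called, and leaving out wild type replicates 1, 2 and 4, the libraries with the most muscle RNA, left 2, cyc-2.1 and cox-5B, with 4.74% of all genes called. All 8 log2 fold changes were above 0 under every one of the 28 alternatives tried.

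Overexpression of cest-2.2 in the mutant was followed by no call among the 8 genes. In OE against gas-1, 0 of the 8 passed edgeR's test and 0 passed DESeq2, with 1 of the 8, cox-5B, at an unadjusted p under 0.05 in edgeR. Of all tested genes edgeR called 1.59% and DESeq2 4.86%, and 15.9% had an unadjusted p under 0.05 in edgeR. The median log2 fold change was -0.21 over the 8 and 0.03 over all tested genes. For cyc-2.1 the difference was -0.34, with a 95% interval from -0.70 to 0.03 computed from the standard error and 12 residual degrees of freedom. For cox-5B it was -0.38 (-0.68 to -0.08, edgeR adjusted p = 0.186). The intervals of cox-5A (-0.47 to 0.28), cox-6A (-0.60 to 0.29) and cox-6B (-0.43 to 0.29) ran to both sides of 0. Those of cox-6C (-0.94 to 0.12) and cox-7C (-0.68 to 0.14) did too, as did that of cox-4, the only gene of the 8 with a value above 0 (0.15, -0.22 to 0.51). A test that was not passed does not show that the groups were alike, and the lower ends of these intervals reached -0.94. In none of the 8 were the OE and gas-1 libraries free of overlap, against 3.76% of all tested genes.

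OE intestines were compared with wild type as well, a comparison that shares its wild type libraries with the first and its OE libraries with the second. Here 5 of the 8 genes were called higher, against 9.33% of all tested genes called and 7.09% called higher, and the median log2 fold change over the 8 was 0.57, against -0.04 over all tested genes. The called genes were cyc-2.1 (0.80 ± 0.17 SE, adjusted p = 0.00864), cox-4 (0.72 ± 0.17, adjusted p = 0.0149), cox-6B (0.62 ± 0.16, adjusted p = 0.0268), cox-5A (0.59 ± 0.17, adjusted p = 0.0408) and cox-5B (0.45 ± 0.14, adjusted p = 0.0482). The values of cox-7C (0.55 ± 0.19, adjusted p = 0.0794), cox-6A (0.53 ± 0.21, adjusted p = 0.114) and cox-6C (0.50 ± 0.24, adjusted p = 0.204) did not pass. Only cox-4 and cox-5B had OE libraries wholly above wild type, against 4.19% of all tested genes. The count rested on few libraries: it was 2 without OE replicate 1 or 3, 3 without any of wild type replicates 2, 3 and 5 or gas-1 replicates 1, 3 and 4 left out in turn, 7 without gas-1 and OE replicates 2, and 0 under total-count scaling or with the intestine marker score in the fit. Over all tested genes those last 3 fits called 15.2%, 5.76% and 0.841%. The fits without OE replicate 1 or 3 called 5.16% and 7.16%, and the fits that gave 3 called 6.33% to 9.22%.

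**Figure D2:**
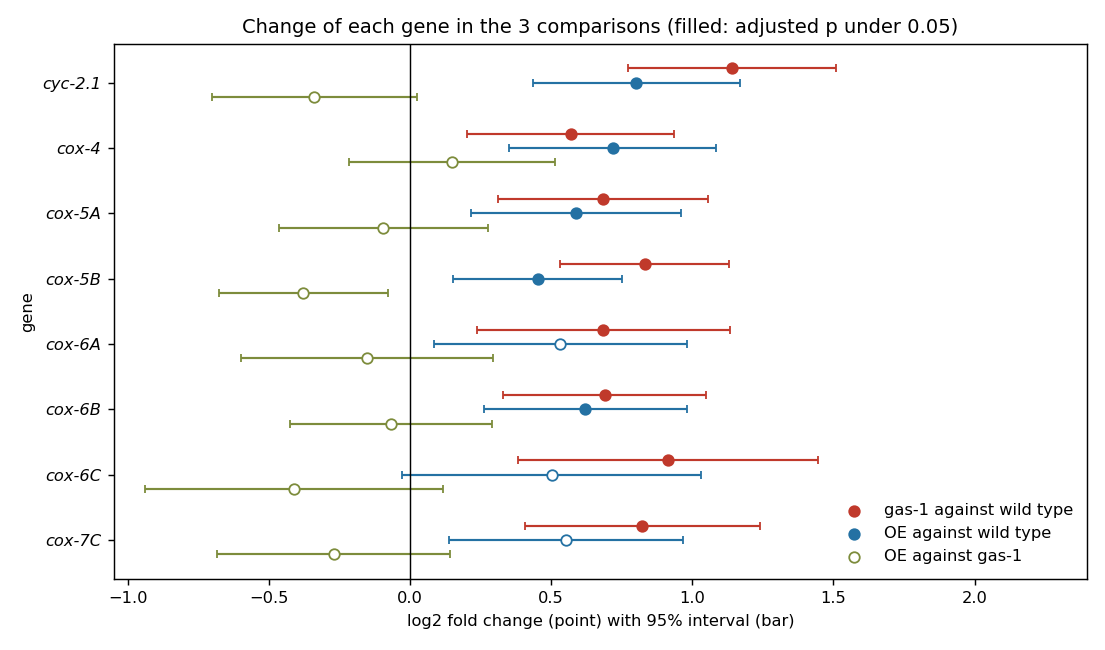
Log2 fold changes of the 8 genes in gas-1 against wild type, OE against gas-1 and OE against wild type, with bars for the 95% intervals from the fit and filled points for adjusted p under 0.05. All 8 are called in the first comparison, 0 in the second and 5 in the third.

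To compare genes with each other, TPM values (transcript abundances divided by length and scaled to the same total) were used. Cytochrome c was the most abundant of the 8 in all 15 libraries, with a mean of 472 TPM. It was followed by cox-5A at 245 TPM and cox-4 at 234 TPM, then by cox-6B at 173, cox-5B at 131, cox-6A at 118.8, cox-7C at 104 and cox-6C at 89.9 TPM. The place of cox-6B as the fourth held in all 15 libraries. Neighbours further down did not separate in every library: cox-5B stood above cox-6A in 11 of 15, cox-6A above cox-7C in 14 of 15, and cox-7C above cox-6C in 10 of 15. The order in TPM rests on the deposited transcript lengths, which differ from Ensembl 115 for cyc-2.1, cox-5B, cox-6A and cox-6B. The main cyc-2.1 transcript had 498 bases as deposited and 549 in Ensembl 115. In CPM, without division by length, wild type means were 86.6 for cox-4 and 82.1 for cyc-2.1.

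**Figure D3:**
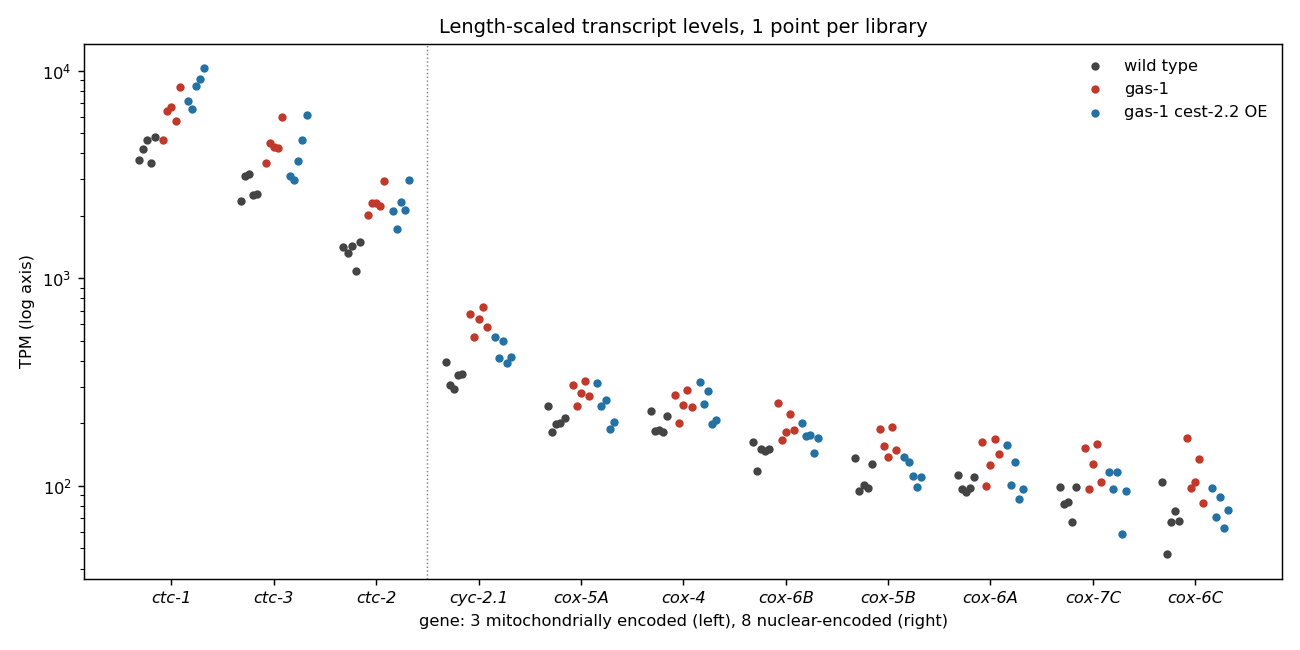
TPM in the 15 libraries on a log axis, with the mitochondrially encoded oxidase genes ctc-1, ctc-3 and ctc-2 at the left. The 8 genes follow at the right, ordered by mean level. Of the 8, cytochrome c (cyc-2.1) leads in every library, and cox-5A and cox-4 lie together below it.

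The order of cox-4 and cox-5A differed between gas-1 and OE. In the 5 gas-1 libraries cox-5A exceeded cox-4 each time, in the 5 OE libraries cox-4 exceeded cox-5A each time, and in wild type cox-5A was ahead in 3 of 5. The cox-4 to cox-5A ratio of TPM ran from 0.898 to 1.01 over wild type libraries, from 0.836 to 0.906 over gas-1 libraries and from 1.01 to 1.10 over OE libraries. The share of cyc-2.1 in the summed TPM of the 8 genes was higher in every gas-1 library than in every wild type library: wild type libraries had 25% to 28.3%, gas-1 libraries 31% to 34.6% and OE libraries 27.9% to 31.8%. The ratio and the share are descriptions without a test. How often other genes or pairs of genes separate the groups in this way was not computed. Summed TPM of the 8 genes averaged 1262 ± 148 for wild type, 1915 ± 273 for gas-1 and 1524 ± 249 for OE (SD, n = 5 each).

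A gene's level can also be set against the mean log2 CPM of the other 7 in the same library, which takes out whatever moves them together. On that scale cyc-2.1 stood 1.14 to 1.38 above the others (wild type), 1.51 to 1.78 (gas-1) and 1.39 to 1.69 (OE), so both mutant groups lay above wild type without overlap, OE only just. By the same measure cox-4 stood 1.3 to 1.47 above the others (wild type), 1 to 1.2 (gas-1) and 1.32 to 1.57 (OE), so gas-1 lay below both other groups without overlap. The group means of cox-4 differed by -0.26 between gas-1 and wild type and by 0.38 between OE and gas-1. In TPM the relative level of cox-4 was 0.53 to 0.70 (wild type), 0.22 to 0.44 (gas-1) and 0.56 to 0.79 (OE), again with gas-1 apart. For cyc-2.1 it was 1.33 to 1.58 (wild type), 1.7 to 1.98 (gas-1) and 1.58 to 1.86 (OE), so in TPM gas-1 stayed above wild type while OE and wild type met at 1.58. The other 6 genes overlapped between groups in each comparison. These relative levels are descriptions without a test, chosen after the values were seen. In CPM, cyc-2.1 and cox-4 were apart between gas-1 and wild type, only cox-4 between OE and gas-1, and only cyc-2.1 between OE and wild type. Of all tested genes set against the mean of the 8, 30.5% did not overlap between gas-1 and wild type, 2.92% between OE and gas-1, and 9.76% between OE and wild type. The mean of the 8 itself rose in gas-1 against wild type, with medians of 0.76 over the 8 and -0.11 over all tested genes. Genes that did not rise with it are therefore set lower by this measure. The 30.5% is thus not a like yardstick for the 8, and the 2 frequencies cannot be compared.

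**Figure D4:**
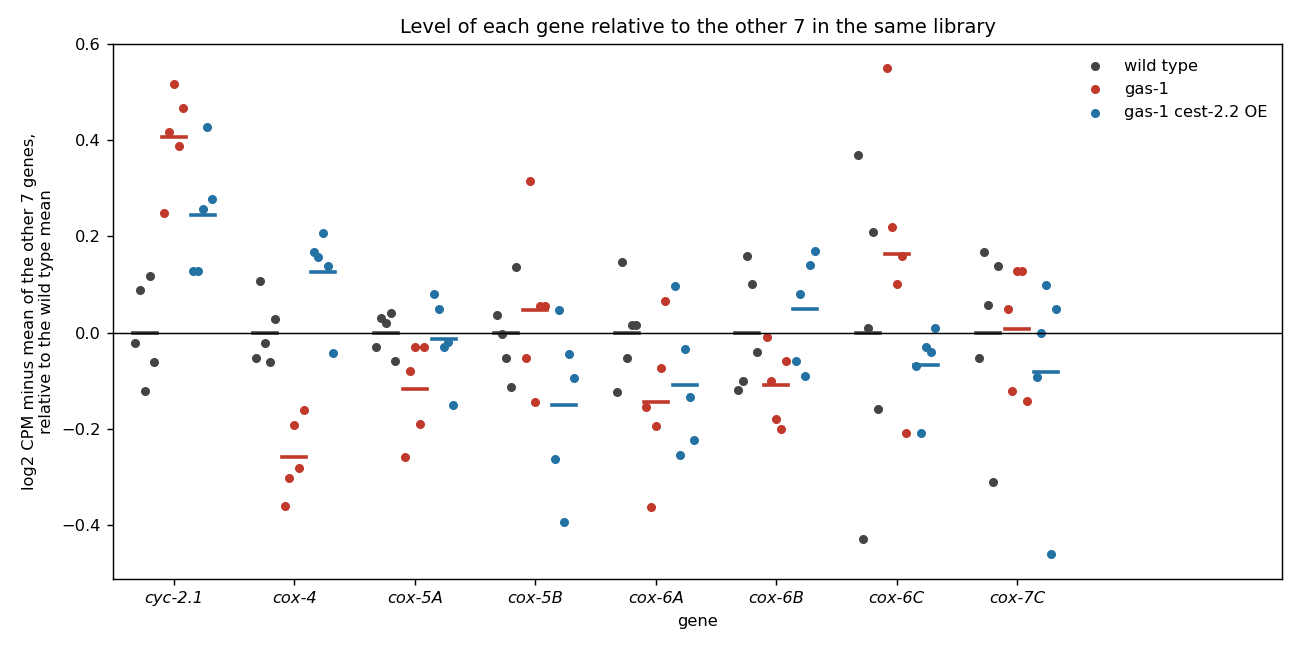
Level of each of the 8 genes relative to the mean log2 CPM of the other 7 in the same library, by group. The points are plotted after subtracting the wild type mean of each gene, and the levels given in this caption are before that subtraction. Cytochrome c (cyc-2.1) is higher in gas-1 and OE (at least 1.39) than in wild type (at most 1.38), though in TPM OE and wild type met at 1.58, and cox-4 is lower in gas-1 (at most 1.2) than in wild type and OE (at least 1.3). Of all tested genes set against the mean of the 8, 30.5% did not overlap between gas-1 and wild type. The share was 2.92% between OE and gas-1 and 9.76% between OE and wild type. The mean of the 8 itself moved between groups, so these shares are not a like yardstick for the 8.

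Within a group, the 8 genes rose and fell by library largely together. The within-group SD of log2 CPM was 0.175 to 0.387 for the single genes and 0.244 for their mean, and after the mean of the 8 was subtracted it was 0.0719 to 0.212. The mean profile, centred over the 15 libraries, read -0.33, -0.76, -0.49, -0.17 and -0.54 in wild type replicates 1 to 5, and 0.49, 0.00, 0.31, 0.47 and 0.40 in gas-1. In OE it read 0.53, -0.23, 0.32, 0.00 and 0.00. Replicate 2 was the lowest library in each group, and OE spanned the widest range, from within the wild type values to the top of the gas-1 values. Marker scores are means of log2 CPM over the intestine and germline lists. In OE, replicate 2 had the lowest intestine score (7) and the highest germline score (7.39) of its group, and gas-1 replicate 2 did too (7.69 and 7.03). Wild type did not show this: replicate 2, at -0.76 in the 8 genes, had an intermediate intestine score (7.02) and germline score (7.13), and the lowest intestine score (6.22) was that of replicate 1, at -0.33. The part of tissue makeup in the profile was not tested.

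**Figure D5:**
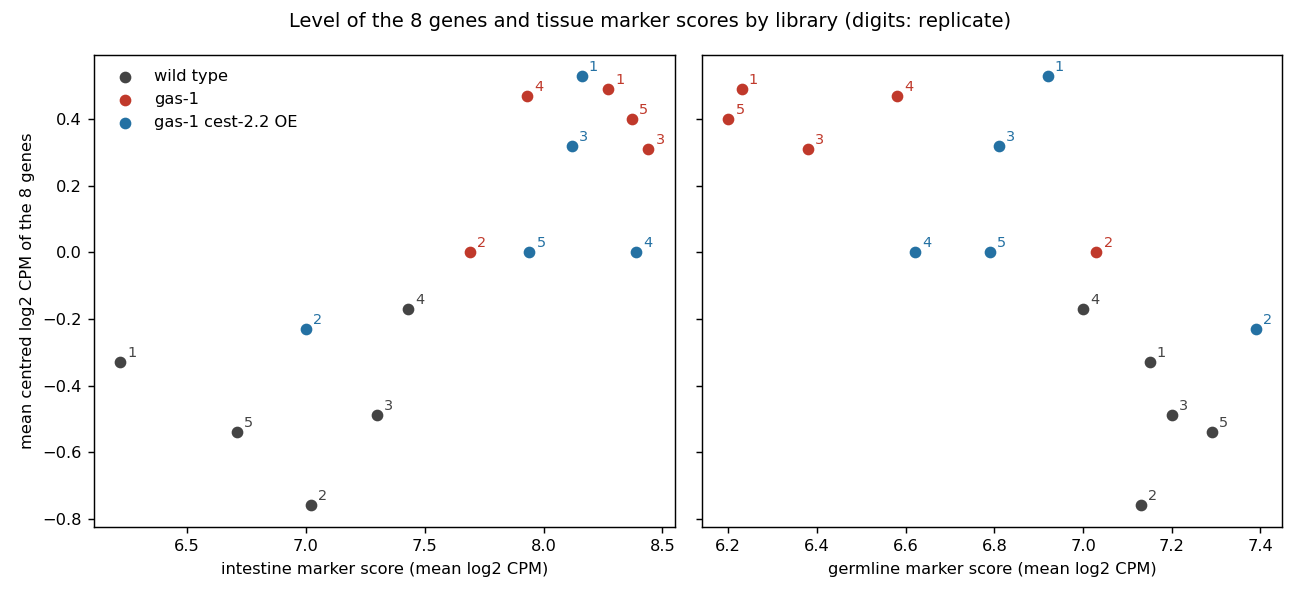
Mean centred log2 CPM of the 8 genes in each library plotted against the intestine and germline marker scores (mean log2 CPM of 14 and 10 markers), coloured by group. Replicate 2 of gas-1 and of OE lies at the low end of the 8 genes and the low end of the intestine score within its group.

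The 6 tested genes outside the 8 whose centred log2 CPM lay nearest to that mean profile over the 15 libraries were ril-1 (root mean square difference 0.125), R04F11.2 (0.132), atp-3 (0.133), Y82E9BR.3 (0.135), F09E5.3 (0.154) and isp-1 (0.155). For all other tested genes the median difference was 0.729. Of the 6 nearest genes, atp-3 and R04F11.2 belong to the ATP synthase list described below, and isp-1 encodes the iron-sulfur protein of complex III. The genes ril-1, Y82E9BR.3 and F09E5.3 are in none of the lists used here. Within the 8, cox-5A followed the mean profile most closely (0.079) and cox-6C least (0.208), but each of the 8 forms part of that mean.

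The mitochondrially encoded core subunits of the oxidase, ctc-1, ctc-2 and ctc-3, were called higher in gas-1 than in wild type as well, against 12.8% of all tested genes. For ctc-1, which carries the oxygen-reducing centre, wild type libraries held 2905, 3358, 4084, 3904 and 3582 CPM, gas-1 libraries 4387, 6130, 6969, 5334 and 9684 CPM, and OE libraries 8398, 5729, 9660, 11623 and 11140 CPM. All gas-1 and all OE libraries of ctc-1 lay above wild type, as did those of 9.62% of all tested genes in gas-1 and 4.19% in OE. The log2 fold changes between gas-1 and wild type were 0.87 ± 0.22 for ctc-1 (adjusted p = 0.0144), 1.07 ± 0.20 for ctc-2 (adjusted p = 0.00189), which receives electrons from cytochrome c, and 0.97 ± 0.25 for ctc-3 (adjusted p = 0.0148). In OE against wild type they were 1.38, 1.14 and 0.97, all called, against 7.09% of all tested genes called higher. In OE against gas-1 they were 0.52, 0.06 and -0.01, none called, against 1.59% of all tested genes called. The geometric mean TPM of these 3 genes was 15.8 to 24.7 times that of the 7 nuclear oxidase subunits across wild type libraries, 15.5 to 34 times across gas-1 and 20.7 to 44.8 times across OE libraries, so the groups overlapped.

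The second cytochrome c gene, cyc-2.2 (chromosome V, 12611682 to 12612218, minus strand), was listed at 0 estimated counts in all 15 libraries. A count of 0 allows up to 3 counts, which is 0.0654 to 0.246 CPM in single libraries and 0.0104 CPM over all 287949794 counts, for counting error only. Cytochrome c transcript in these libraries was therefore assigned to cyc-2.1, although reads that fit both copies would be divided by estimation.

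Assembly factors of the oxidase, the enzyme that attaches heme to cytochrome c, and cyc-2.2 formed a list of 24 genes, of which 19 were in the map. All of these but cyc-2.2, 18 genes, were tested. In gas-1 against wild type 1 of the 18 was called, against 21.4% of all tested genes. It was coa-5, a small factor of the space between the membranes (0.82 ± 0.26, adjusted p = 0.0376). The median log2 fold change over the 18 was 0.09. The heme-attaching enzyme cchl-1 read -0.29 ± 0.14 (adjusted p = 0.132), the copper chaperone sco-1 read 0.08 ± 0.19 (adjusted p = 0.792) and the heme A synthase cox-15 read 0.29 ± 0.16 (adjusted p = 0.204). For OE against gas-1 edgeR called 0 of the 18 and left 0 at an unadjusted p under 0.05, against 1.59% and 15.9% of all tested genes. For OE against wild type it called 0 of the 18, against 9.33% of all tested genes. There 2 of the 18 had an unadjusted p under 0.05, against 2729 of all 10585 tested genes. Transcripts of this list were less abundant, with a median of 14.7 TPM over the 19 mapped genes, cyc-2.2 included, against 152 TPM over the 8 genes. Standard errors over the 18 in gas-1 against wild type ran from 0.14 (cchl-1) to 0.97 (cox-10), with 0.55 for cox-19 and 0.53 for cox-17. For the genes with wide errors, a missing call says little about a change of the size seen in the 8.

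Complex III, which feeds electrons to cytochrome c, had 11 tested genes. Of these 6 were called higher in gas-1 than in wild type and 0 lower: ucr-2.1 (1.10 ± 0.20), ctb-1, the mitochondrially encoded cytochrome b (0.96 ± 0.23), cyc-1, cytochrome c1 (0.91 ± 0.17), ucr-2.2 (0.72 ± 0.23), T02H6.11 (0.58 ± 0.20) and isp-1 (0.54 ± 0.15). Their counts were 0 called in OE against gas-1 (1 at an unadjusted p under 0.05) and 3 called higher in OE against wild type, with medians over the 11 of 0.58, -0.02 and 0.48 in the 3 comparisons. Of the 12 ATP synthase genes listed here, all tested, 7 were called higher in gas-1 against wild type, among them R04F11.2 (0.87 ± 0.16), atp-3 (0.68 ± 0.14) and atp-4 (0.71 ± 0.16). In OE against wild type 4 were called and in OE against gas-1 0 (1 at an unadjusted p under 0.05), and the medians were 0.53, 0.46 and -0.12 in the order given here. Of all tested genes 12.8% were called higher in gas-1 against wild type and 7.09% in OE against wild type. In OE against gas-1 1.59% were called. The ATP synthase gene asb-1, whose expression is known mainly from the germline, read -0.52 ± 0.19 in gas-1 against wild type (adjusted p = 0.0595), while its paralog asb-2 was higher (0.87 ± 0.25, adjusted p = 0.024).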

How the data were processed

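RNA of 15 libraries (3 groups of 5) was sequenced after Smart-seq2, which keeps no strand information, per the labels. The authors used bcl2fastq 2.20, kallisto 0.44.0 and the WBcel235 build, per the submitters' processing notes; the annotation release is not given in the sources used here. Per the file headers, the deposited files hold estimated counts (not normalized), TPM and transcript lengths (other values, in bases). Targets carry integers only, and each was read as a line number, from 0, in the map of transcripts the authors deposited. With Ensembl release 115, 99.96% of 27233 non-coding lengths were then equal and 99.55% of 28895 coding targets were at least as long as their coding sequence, against 53.05% and 58.89% after a shift by 1 line; gene identities rest on that reading. The authors' table of comparisons was not used, because its transcript names did not go with its values.

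Estimated counts were summed per gene and rounded. In edgeR 4.0.16 (R 4.3.3), genes were filtered by filterByExpr (minimum count 10), scaled by TMM and tested by the quasi-likelihood F test, applied to all 15 libraries in a single fit with 12 residual degrees of freedom and a common biological coefficient of variation of 0.527. Benjamini-Hochberg adjustment covered all 10585 tested genes, with calls under 0.05. Log2 CPM used a prior count of 2. The fits were tested on simulated counts. Alternatives used DESeq2 1.42.0, limma 3.58.1 (voom, and log2(TPM + 1) for genes with a mean TPM of at least 1), other scalings and filters, marker scores as covariates and libraries left out.

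The text names the 8 genes, ctc-1 to ctc-3, cyc-2.2, gas-1, cest-2.2 (ZC376.2 in the map), up to 6 called genes of each list with the smallest adjusted p, and the 6 genes nearest in profile; cchl-1, sco-1, cox-15 and asb-1 were added after their values were seen. The 8 genes, lists, tests and alternatives were chosen with earlier results of these data known. Coordinates are from Ensembl 115 (WBcel235).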

Additional observations from a re-analysis of the deposited data

Results flagged for a closer look

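Of the 24 groups of 5 libraries (8 genes in 3 groups), 3 held a library far from the rest, and all 3 were gas-1 replicate 2, so they are not separate events. Chance alone sets apart a library in about 1 in 20 groups. Its cyc-2.1 level was 143.7 CPM, with the next library at 182 CPM. Its cox-4 level was 98.82 CPM, with the next at 130.8 CPM. Its cox-5A level was 101.2 CPM, with the next at 127.1 CPM. The gap to the nearest library, divided by the range of the group, was 0.745, 0.75 and 0.722, above the critical value of 0.71. This library had the lowest intestine score and the highest germline score of the gas-1 group, and their part in its values was not tested.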

How the results depend on the processing

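The number of the 8 genes called in gas-1 against wild type was 8, and under 28 alternatives it stayed within 6 to 8 except for 5 fits: 1 with total-count scaling, 5 with log2(TPM + 1), 2 without wild type replicates 1, 2 and 4, and 0 with the intestine or the germline marker score as a covariate. Over all tested genes those 5 fits called 16.5%, 26.1%, 4.74%, 1.74% and 1.65%, against 21.4% in the main fit. Leaving out 1 library at a time gave 6 to 8, with 12.1% to 22.9% of all tested genes called. In OE against gas-1 the number of the 8 genes called was 0 throughout, and 5 values changed sign: cox-4 read -0.030 with total counts and -0.0029 with TPM, and cox-5A 0.095, cox-6A 0.17 and cox-6B 0.17 with the germline score. In OE against wild type it was 5. It fell to 0 with total counts (cox-5B then read -0.040), TPM, the intestine score or without wild type replicates 1, 2 and 4, to 1 with the muscle score, to 2 with the germline score or with only the 2 groups compared in the fit, and to 3 with no filter on low counts. Over all tested genes these fits called 5.76%, 13.1%, 0.841%, 1.23%, 5.21%, 5.27%, 6.48% and 4.86% in that order, against 9.33% in the main fit. Leaving out 1 library at a time gave 2 to 7 there, with 4.69% to 14.9% of all tested genes called. The cause of these changes was not tested. Total-count scaling moved the median log2 fold change of all genes by -0.32, -0.17 and -0.48 in the 3 comparisons. Measured from that median, the median of the 8 genes in gas-1 against wild type was 0.86 with TMM, 0.88 with total counts and 0.81 with TPM, and 0.56 and 0.46 with the intestine and germline scores. Total counts also changed the share of calls that were higher, over all genes, from 59.7% to 49% in gas-1 against wild type, from 39.9% to 14.6% in OE against gas-1 and from 76% to 42.6% in OE against wild type. Calls over all genes were 2268 (175 to 3016 under the alternatives), 168 (85 to 514) and 988 (89 to 1661). With the replicate number of the titles as a replicate block, 8, 0 and 5 of the 8 genes were called, against 20.2%, 0.964% and 7.11% of all tested genes. Samples of equal number shared little else: residual correlations passed 0.1 in 0, 1 and 1 of 5 pairs, and 0, 2 and 1 of 5 libraries correlated best with their own number. Leaving out gas-1 and OE replicates 2 together, chosen after the data were seen, gave 8, 0 and 7, against 26%, 1.57% and 15.2% of all tested genes.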
